A study of Mus musculus with 6 samples.

Results

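The transcripts described here mark the macrophages that reside in bone marrow, and were measured in RNA labelled as that of purified bone endothelial cells (BECs) of mice. They are 10 genes of the 37991 in the deposited table of counts, chosen by name: C1qa, C1qb, C1qc, Adgre1, Vcam1, Siglec1, Mertk, Axl, Cd5l and Spic. The study compared female and male C57BL/6 mice (c57/Bl6 in the labels, C57BL/6J for wild-type mice in the study's methods) of 12 weeks of age, for which the labels give no treatment and no engineered allele, with 3 libraries from each sex. According to the labels, the cells came fresh from the tibia and were purified by their expression of endomucin, a surface glycoprotein of capillary endothelium. The study's general protocol for BECs binds them to magnetic beads coated with an antibody to endomucin, lyses red cells and names no removal of leukocytes, while the labels name a sort into lysis buffer. The question the comparison addresses is how far BECs differ between the sexes. Nothing in the labels says how many mice gave each library, so p-values measure only the spread between these libraries.

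Resident macrophages of the marrow sit at the centre of erythroblastic islands, where they hold maturing red cell precursors, engulf the expelled nuclei and recycle iron from aged red cells. They also clear dying neutrophils and line the sinusoids, close to the endothelium. The genes fall into 4 groups by role. C1qa, C1qb and C1qc encode the chains of C1q, the recognition unit of the classical complement pathway, which binds apoptotic cells. Adgre1 (F4/80), Siglec1 (CD169) and Vcam1 are surface molecules, and the last of these holds erythroblasts through the integrin VLA-4. Mertk and Axl are receptor tyrosine kinases that recognise dying cells through bridging ligands, and Cd5l (AIM) is a secreted scavenger protein. Spic encodes an ETS transcription factor that is needed for the red pulp macrophages of the spleen and for the VCAM1+ macrophages of the marrow. Vcam1 and Axl are not restricted to macrophages and are also expressed by endothelial and stromal cells.

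Promoter sequences show what the regulatory start of these genes looks like beside their values. A promoter here is the stretch from 250 bases before to 50 bases after the annotated start of transcription, taken from RefSeq on GRCm38.p6, and 6 of the 10 genes had one. Those of C1qb and C1qc are shown because these neighbouring genes had almost equal counts in every library, that of Cd5l because it holds both motifs searched, and that of Spic because its product is itself a DNA-binding factor. Capitals mark GAGGAA, written as TTCCTC where it lies on the other strand, the core of the PU box that PU.1 and its relative SPI-C bind. They also mark TGCTGA, written as TCAGCA where it lies on the other strand and called the MAF core here, which is repeated in the recognition element of the MAF factors. The motifs were searched on both strands. These letters do not overlap each other in the sequences below, which run 5′ to 3′ on the strand of the gene.
C1qb: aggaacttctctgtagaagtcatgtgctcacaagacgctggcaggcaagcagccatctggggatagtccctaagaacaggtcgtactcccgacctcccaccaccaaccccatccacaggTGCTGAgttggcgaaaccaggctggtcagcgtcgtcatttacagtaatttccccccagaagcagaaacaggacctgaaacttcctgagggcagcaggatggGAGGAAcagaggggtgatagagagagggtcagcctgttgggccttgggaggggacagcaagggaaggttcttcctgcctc
C1qc: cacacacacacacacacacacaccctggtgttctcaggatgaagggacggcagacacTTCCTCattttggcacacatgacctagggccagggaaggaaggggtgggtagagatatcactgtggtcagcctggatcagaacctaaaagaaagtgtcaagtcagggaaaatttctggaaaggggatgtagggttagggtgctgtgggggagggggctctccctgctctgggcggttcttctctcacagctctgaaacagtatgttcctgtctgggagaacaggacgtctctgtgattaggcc
Cd5l: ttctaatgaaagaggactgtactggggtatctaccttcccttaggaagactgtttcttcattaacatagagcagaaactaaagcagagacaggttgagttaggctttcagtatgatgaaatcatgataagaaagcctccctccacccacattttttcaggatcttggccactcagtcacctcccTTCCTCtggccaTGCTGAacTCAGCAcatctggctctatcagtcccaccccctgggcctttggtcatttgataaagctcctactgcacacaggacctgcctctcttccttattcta
Spic: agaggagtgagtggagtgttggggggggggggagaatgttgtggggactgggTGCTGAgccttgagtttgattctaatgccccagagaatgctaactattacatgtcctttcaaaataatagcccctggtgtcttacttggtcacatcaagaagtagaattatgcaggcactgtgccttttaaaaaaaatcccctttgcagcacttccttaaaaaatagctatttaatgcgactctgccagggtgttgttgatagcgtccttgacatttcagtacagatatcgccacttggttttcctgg

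The C1qb promoter (chr4:136886151-136886450, minus strand) had 1 match to the PU box and 1 to the MAF core. The C1qc promoter (chr4:136892865-136893164, minus strand) had 1 match to the PU box. The Cd5l promoter (chr3:87357631-87357930, plus strand) had 1 PU box and 2 MAF cores, one on each strand. The Spic promoter (chr10:88682974-88683273, minus strand) had 1 MAF core. Of the 6 genes with a promoter in this set, 4 held the PU box and 3 the MAF core, where 28.3% and 19.5% of all 32851 promoters of this length did. A match is a description of the letters and not a binding site.

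All 10 genes were read deeply, with between 3055 and 79381 counts in each library. The libraries held between 47678806 and 58325745 counts in all, and all 10 genes passed the filter on low counts, as did 19480 genes in total. Values of single genes are CPM, the usual unit of counts relative to library size, here after TMM scaling, a correction that sets the bulk of genes level between libraries. Together the 10 genes held 0.565 ± 0.0269% of the counts in females and 0.414 ± 0.0479% in males (SD, n = 3). The 18 endothelial markers held 0.0513 ± 0.0122% and 0.0296 ± 0.00552% (SD, n = 3). The labelled cell type was thus detected, and its 18 markers together took fewer counts than the 10 macrophage genes, without regard to length. Emcn, the gene of endomucin, had 8.19 ± 2.63 CPM in females and 4.67 ± 1.86 in males (SD, n = 3). Cdh5, the gene of VE-cadherin, had 26.5 ± 9.32 and 11.8 ± 4.89 CPM (SD, n = 3). Ptprc, the gene of the leukocyte antigen CD45, had 539 ± 55.6 and 577 ± 42.9 CPM (SD, n = 3). In a principal component analysis of the 500 most variable genes, male replicate 3 lay apart on the second component, at 33.1 where the other libraries lay between -16.7 and 7.29, and female replicate 3 on the first, at 31.5 where the others lay between -25.5 and 9.84. Results without male replicate 3 are given below, and without female replicate 3 the median log2 fold change of the 10 genes was -0.45.

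Every one of the 10 macrophage genes had a lower mean CPM in males than in females, by between 21.7% for Spic and 32.2% for Cd5l, a direction that turned for 8 of them when the libraries were scaled to other macrophage genes and for all 10 when they were scaled to endothelial genes. Directions below are on the TMM scale, and both scalings are described where the ratios between genes are given. The log2 fold changes of males over females lay between -0.56 and -0.35, with a median of -0.40, where the median of all 19480 genes was -0.0012. None of the 10 passed an adjusted p of 0.05 in edgeR's quasi-likelihood test, where 0.0154% of all genes tested passed it as lower in males and 0.0411% in either direction. The adjusted p lay between 0.274 and 0.486 (edgeR, Benjamini-Hochberg over all genes tested). At an unadjusted p under 0.05, all 10 were lower in males, against 4.76% of all genes, and DESeq2's Wald test called 1 of the 10, Axl, against 0.726%. With the replicate number as a block, which the labels do not give as a pairing, edgeR called 0 of the 10 against 1.06% of all genes, and DESeq2 called 5, C1qc, Adgre1, Vcam1, Axl and Cd5l, against 2.03%. For 6 of the 10 genes every female library was above every male one, which held for 7.29% of all genes. In bulk RNA, fewer macrophages and less of these transcripts per macrophage cannot be told apart.

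**Figure D1:**
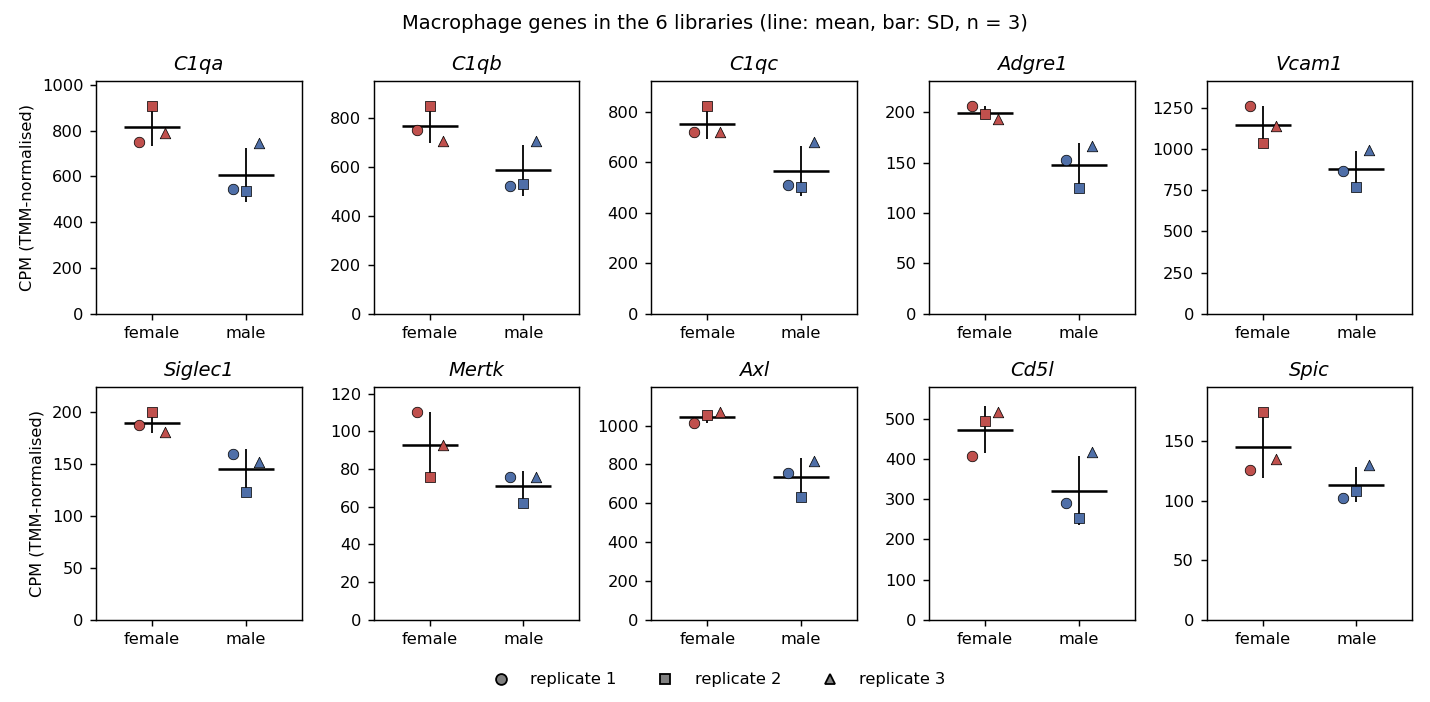
TMM-normalised CPM of the 10 macrophage genes in the 6 libraries, with points for single libraries shaped by replicate number, y axes from 0, horizontal lines for the mean and vertical bars for the SD of 3 libraries. The highest library is a female one for all 10 genes, and male replicate 3 is the highest male library for 8 of them.

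The C1q chains had lower means in males on the TMM scale by about the same ratio, and the sexes overlapped for C1qb alone of them. C1qa (ENSMUSG00000036887) had 748, 907 and 787 CPM in female replicates 1, 2 and 3 and 543, 535 and 743 in males. The sexes did not overlap, but the lowest female library was only 1.01 times the highest male one, replicate 3. The log2 ratio of males to females was -0.42 (SE 0.166, 95% interval -0.79 to -0.053), and edgeR gave an adjusted p of 0.439. C1qb (ENSMUSG00000036905) had 753, 851 and 707 CPM in females and 525, 529.6 and 707 in males. Here male replicate 3 and female replicate 3 were level, and the log2 ratio was -0.39 (SE 0.160) with an adjusted p of 0.456 in edgeR. C1qc (ENSMUSG00000036896) had 719, 823 and 718 CPM in females and 511, 502 and 678 in males. All females lay above all males, with a log2 ratio of -0.42 (SE 0.157) and an adjusted p of 0.414 in edgeR.

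The chains kept their proportions from library to library. The genes stand side by side on chromosome 4 of GRCm39, on the minus strand, C1qb from 136606009 to 136613511, C1qc from 136616466 to 136620376 and C1qa from 136623223 to 136626161, a cluster of 20153 bases. For each count of C1qa, the libraries had between 0.899 and 1.01 counts of C1qb and between 0.907 and 0.962 of C1qc, without regard to length. The sexes overlapped in both ratios. C1qc over C1qa had a mean of 0.927 ± 0.0303 in females and 0.930 ± 0.0152 in males (SD, n = 3). C1q protein contains its chains in equal numbers.

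The surface molecules Adgre1 and Siglec1 separated the sexes with some distance. Adgre1 (ENSMUSG00000004730, chromosome 17, 57665573 to 57790527) encodes F4/80, an adhesion receptor used as the classical mark of mouse tissue macrophages. It had 206, 198 and 194 CPM in females and 152, 125 and 167 in males. The lowest female library was 1.16 times the highest male library. The log2 ratio of males to females was -0.43 (SE 0.132, 95% interval -0.72 to -0.14), and edgeR gave an adjusted p of 0.314. Siglec1 (ENSMUSG00000027322, chromosome 2, 130911140 to 130928685), a lectin that binds sialic acid on other cells, had 188, 199.5 and 180.0 CPM in females and 159.6, 123 and 152 in males. The sexes did not overlap, and the log2 ratio was -0.38 (SE 0.130) with an adjusted p of 0.357 in edgeR.

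Vcam1 took the most counts of the 10 genes in every library but female replicate 2, where Axl did, without regard to length. It lies on chromosome 3 (ENSMUSG00000027962, 115903598 to 115923355) and had 1262.5, 1039 and 1143 CPM in females and 870.1, 768 and 994 in males. All females were above all males, with a log2 ratio of -0.39 (SE 0.154) and an adjusted p of 0.441 in edgeR. Its ratio to Adgre1 was 5.75 ± 0.458 in females and 5.94 ± 0.214 in males (SD, n = 3) in counts, with overlap between the sexes. Since endothelial and stromal cells also express Vcam1, their markers were set beside it. The endothelial list held 0.0603%, 0.0374% and 0.0563% of the counts in female replicates 1, 2 and 3, the stromal list 0.442%, 0.220% and 0.414%, and Vcam1 was also lowest of the females in replicate 2. The part of those cells in the level of Vcam1 was not tested.

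Axl and Mertk, the receptors of dying cells, had coefficients of variation of 20.4% and 20.6% over the 6 libraries. Axl (ENSMUSG00000002602, chromosome 7, 25456535 to 25488329) had 1011, 1056 and 1069.6 CPM in females and 755, 632 and 820.0 in males, the widest gap of the 10 genes between the lowest female and the highest male library, a ratio of 1.23. Its log2 ratio of males to females was -0.51 (SE 0.145, 95% interval -0.83 to -0.18), and edgeR gave an adjusted p of 0.274. This was the gene that DESeq2's Wald test called, with an adjusted p of 0.0288. Mertk (ENSMUSG00000014361, chromosome 2, 128540729 to 128645080) had 110.1, 75.8 and 93.0 CPM in females and 76.0, 62.0 and 75.6 in males. Female replicate 2 lay within the range of the males. The log2 ratio was -0.39 (SE 0.152) with an adjusted p of 0.439 in edgeR, and -0.24 without female replicate 1. The count ratio of Axl to Mertk was between 9.18 and 13.9, both ends in females, and between 9.94 and 10.9 in males.

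Cd5l had the largest difference and the largest spread with all 6 libraries, though without male replicate 1 the difference of Axl was larger, at -0.53 against -0.50. The gene (ENSMUSG00000015854, chromosome 3, 87265182 to 87278380) had 407, 495 and 516 CPM in females and 289.85, 254 and 417 in males. Male replicate 3 was above female replicate 1, so the sexes overlapped, and the other males were below all females. The log2 ratio of males to females was -0.56 (SE 0.191, 95% interval -0.98 to -0.14), and edgeR gave an adjusted p of 0.360. Its coefficient of variation over the 6 libraries was 26.7%, where it was at least 16.6% for the others and the median of all genes tested was 18.6%. Without male replicate 3 the log2 fold change was -0.80 and the adjusted p 0.0510 in edgeR.

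Spic had the smallest difference with all 6 libraries, though Mertk or Siglec1 had it with some libraries left out. It lies on chromosome 10 (ENSMUSG00000004359, 88510629 to 88520960) and had 125.5, 174 and 135 CPM in females and 102, 108 and 130.1 in males. Male replicate 3 lay above female replicate 1, and the log2 ratio of males to females was -0.35 (SE 0.153, 95% interval -0.69 to -0.014), and edgeR gave an adjusted p of 0.486. Without female replicate 2, the highest library, the log2 ratio of Spic was -0.20. Bach1, whose product represses Spic until haem releases it and which was named after its values were seen, had 46.1 ± 2.45 CPM in females and 55.8 ± 4.03 in males (SD, n = 3), with no overlap and an adjusted p of 0.450 in edgeR. Hmox1, the haem-degrading enzyme that BACH1 also represses, is described below. The part of BACH1 in the levels of Spic and Hmox1 was not tested.

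**Figure D2:**
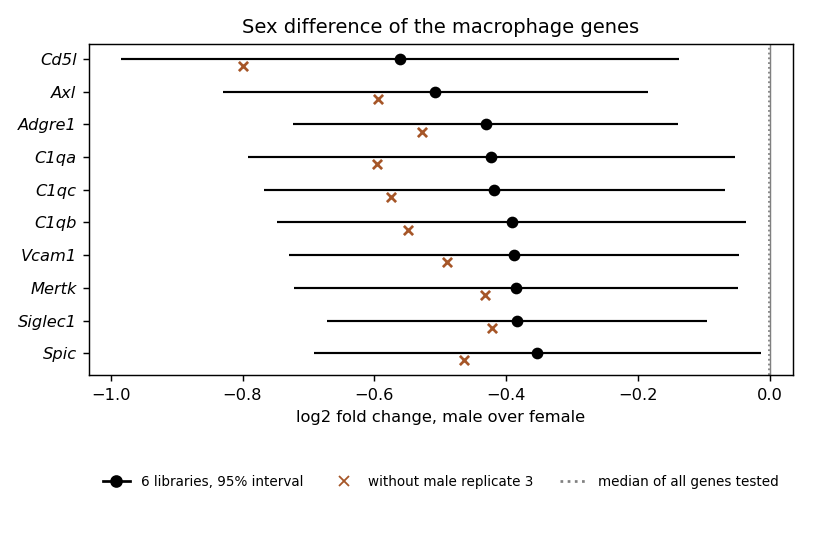
Log2 fold change of males over females for each gene, as points with 95% intervals from edgeR (6 libraries), as crosses without male replicate 3, and with a dotted line at the median of all genes tested. All points lie between -0.56 and -0.35 and the crosses between -0.80 and -0.42, on the TMM scale.

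Male replicate 3 was the male library closest to the females for 8 of the 10 genes, and male replicate 2 was the lowest library for 8. Without male replicate 3, the sexes no longer overlapped for 9 of the 10 genes, where 16.8% of all genes did not in this direction, and the log2 fold changes lay between -0.80 and -0.42. None passed the adjusted p of 0.05 then either, the values being between 0.0510 and 0.287 in edgeR. Without male replicate 2, the median of the 10 genes was -0.32, and 2 of them had an unadjusted p under 0.05, where 2.13% of all genes were lower at that p in the same fit. On the TMM scale all 10 were lower in males with each library left out in turn.

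Levels can be compared between genes only per length, here as CPM per kilobase of annotated exon. On this scale C1qa was highest, at 441 ± 90.3 (SD, n = 6, both sexes), with every library above those of the other genes. C1qc (230.2 ± 44.4) and Cd5l (194 ± 51.9) followed, with overlapping libraries (SD, n = 6). Vcam1 (113 ± 19.9), C1qb (109 ± 20.6) and Axl (97.0 ± 19.8) could not be separated from each other by their library ranges (SD, n = 6), and the highest library of Vcam1 lay above the lowest of Cd5l. Every library of Axl lay above those of Adgre1. Adgre1 (49.4 ± 8.94), Spic (31.3 ± 6.18), Siglec1 (23.4 ± 3.89) and Mertk (17.1 ± 3.52) closed the order (SD, n = 6), each overlapping the next by library range. These ranges pool the libraries of both sexes, and the order of the genes within single libraries was not compared. C1qa ranked at place 79 of 14333 protein-coding genes and Mertk at place 1683. On the same scale Csf1r, the receptor of the growth factor that macrophages depend on, had 32.3 ± 6.91 and Emcn 0.975 ± 0.425 (SD, n = 6). The order depends on the length used, since the exons of C1qb add up to 6246 bases and its canonical transcript has 2532. With canonical transcripts C1qb stood at 268, and with these or the longest transcripts Vcam1 came next after C1qc and Spic stood above Adgre1.

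Set against the Csf1r count of the same library, the genes were close between the sexes. Csf1r itself had 280.05 ± 23.4 CPM in females and 195 ± 23.0 in males (SD, n = 3), with all females above all males, a log2 ratio of -0.52 and an adjusted p of 0.230 in edgeR. C1qa was 2.92 ± 0.340 times Csf1r in females and 3.12 ± 0.532 times in males (SD, n = 3). For Adgre1 these ratios were 0.715 ± 0.0445 and 0.758 ± 0.0501, and for Cd5l 1.70 ± 0.333 and 1.64 ± 0.352 (SD, n = 3). The sexes overlapped for every gene except Siglec1, whose ratio was 0.677 ± 0.0397 in females and 0.741 ± 0.0124 in males (SD, n = 3), higher in all males. The summed counts of the 10 genes were between 3.40 and 3.88 times those of 12 other macrophage genes in the 6 libraries, and the sexes overlapped. When the libraries were scaled to these 12 genes in place of TMM, the median log2 fold change of the 10 was 0.067, Axl and Cd5l alone were below 0, and no gene of the 10 had an unadjusted p under 0.05. The sum used here follows its most abundant genes. Mrc1, described below, took the most counts of the 12 in every library. Its log2 ratio was -0.63 on the TMM scale, where the median of the 12 genes was -0.36. Scaled to the 18 endothelial genes, an alternative added after the data were seen, the median of the 10 was 0.32. These scalings moved the median of all genes by 0.49 and 0.77. Such a scaling shifts all genes alike, so it leaves the distance of the 10 genes from the median of all genes nearly as it was. These ratios share Csf1r or the 12 genes as a common divisor.

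**Figure D3:**
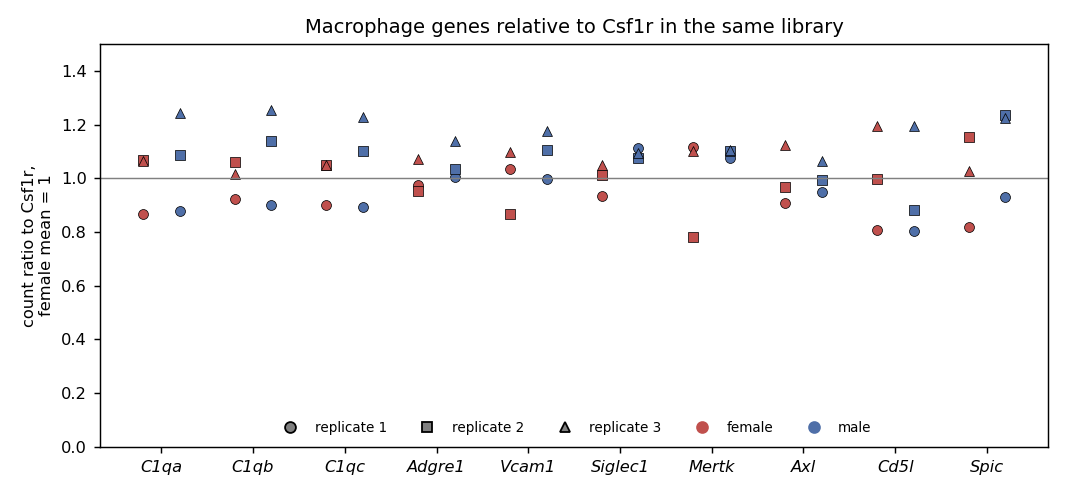
Count of each macrophage gene divided by the Csf1r count of the same library and set to 1 at the female mean, for females and males with markers by replicate number. The sexes overlap for every gene other than Siglec1.

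The lists that follow are on the TMM scale. Scaled to the 12 other macrophage genes or to the endothelial genes, the median of each macrophage list was above 0. The 12 other macrophage genes had a median log2 fold change of -0.36, with 9 lower and 3 higher in males and none at an adjusted p under 0.05 in edgeR. Mrc1, the mannose receptor, had 520 ± 28.8 CPM in females and 335 ± 55.2 in males (SD, n = 3), a log2 ratio of -0.63 and an adjusted p of 0.185 in edgeR. Lgmn, a lysosomal protease, had 338 ± 12.1 and 262 ± 50.1 CPM (SD, n = 3). Marco, a scavenger receptor, had the largest difference of this list, with 5.92, 8.78 and 10.3 CPM in females and 2.51, 1.79 and 2.07 in males. No male reached the lowest female, and its log2 ratio was -1.97 (SE 0.273) with an adjusted p of 0.0532 in edgeR. Timd4, a receptor for phosphatidylserine on long-lived resident macrophages that was named after its values were seen, had 35.3 ± 4.30 and 17.8 ± 3.79 CPM (SD, n = 3) and an adjusted p of 0.0701 in edgeR.

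Of the 10 genes of haem recycling and the erythroblastic island, 9 were lower in males and 1 higher, with a median of -0.33 and none at an adjusted p under 0.05 in edgeR. Hmox1 had 1215, 1883 and 1523 CPM in females and 894, 622 and 1127 in males, with no overlap and a log2 ratio of -0.81 (SE 0.233) and an adjusted p of 0.284 in edgeR. Slc40a1, the gene of the iron exporter ferroportin, had 1016 ± 124 and 648 ± 128 CPM (SD, n = 3), a log2 ratio of -0.65 and an adjusted p of 0.252 in edgeR. In both, male replicate 3 was again the highest male.

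The 15 genes of efferocytosis, the engulfing of dying cells, all had a lower mean in males (11 of them a higher one when scaled to the 12 macrophage genes), with a median of -0.35 and none at an adjusted p under 0.05 in edgeR. Calr, whose product on dying cells is an eat-me signal, had 599.6 ± 58.7 CPM in females and 492 ± 87.9 in males (SD, n = 3). Lrp1, the receptor for this signal, had 236 ± 23.7 and 165 ± 36.3 (SD, n = 3) with no overlap. Gas6 and Pros1 encode the ligands of MERTK and AXL, and were named after their values were seen. Gas6 had 208 ± 69.1 and 173 ± 70.4 CPM, and Pros1 29.1 ± 7.28 and 18.3 ± 2.85 (SD, n = 3), with overlap in both and an adjusted p of 0.837 and 0.300 in edgeR. Tyro3, the remaining receptor of this family and also named after its values were seen, had 0.803 ± 0.457 and 0.728 ± 0.142 CPM (SD, n = 3), from 15 to 72 counts a library.

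Complement genes other than C1q were mixed, with 8 of 12 lower and 4 higher in males, and a median of -0.30. Cfp, the gene of properdin, had 455 ± 15.5 and 356 ± 69.0 CPM (SD, n = 3), with no overlap. Itgam, a chain of the complement receptor CR3 that neutrophils and monocytes also carry, had 189.75 ± 25.1 and 262 ± 27.6 (SD, n = 3), higher in all males, with an adjusted p of 0.305 in edgeR. C5ar1, the receptor for the complement fragment C5a that neutrophils also carry, was named after its values were seen. It had 51.4 ± 6.44 and 85.2 ± 1.10 CPM (SD, n = 3), higher in all males, with a log2 ratio of 0.73 and an adjusted p of 0.0608 in edgeR, the lowest of this list. C1ra and C1s1, the proteases that join C1q in the C1 complex and were named after their values were seen, had log2 fold changes of -0.65 and -0.47, with overlap between the sexes. None of the 12 passed an adjusted p of 0.05 in edgeR.

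Of the 14 transcription factors and growth factors of macrophages, 9 were lower and 5 higher in males, with a median of -0.16 and none at an adjusted p under 0.05 in edgeR. Irf8, a factor of mononuclear phagocytes and B cells, had 294 ± 37.8 CPM in females and 269 ± 17.4 in males (SD, n = 3). Spi1, the gene of PU.1, which neutrophils also express, had 227 ± 35.0 and 292 ± 24.2 (SD, n = 3), a log2 ratio of 0.36 and an adjusted p of 0.441 in edgeR. Among 5 adhesion partners, Itgb1, which encodes the beta chain of VLA-4, had 153 ± 13.9 and 113 ± 12.7 CPM, Itga4, which encodes its alpha chain and was named after its values were seen, 111 ± 7.36 and 115 ± 27.9, and Selplg 202 ± 16.0 and 251 ± 9.40 (SD, n = 3), so 3 of this list were lower and 2 higher in males. Over the 68 genes of the 6 lists, 53 were lower in males on the TMM scale, and 0 passed an adjusted p of 0.05 in edgeR. Scaled to the 12 macrophage genes or to the endothelial genes, most genes of each list were higher in males. At an unadjusted p under 0.05 on the TMM scale there were 28 lower and 5 higher, and DESeq2's Wald test called 6 lower and 1 higher. Of all 19480 genes tested 50.2% were lower. At an unadjusted p under 0.05, 4.76% were lower and 980 genes higher. DESeq2 called 0.726% lower and 225 of 17762 genes higher.

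**Figure D4:**
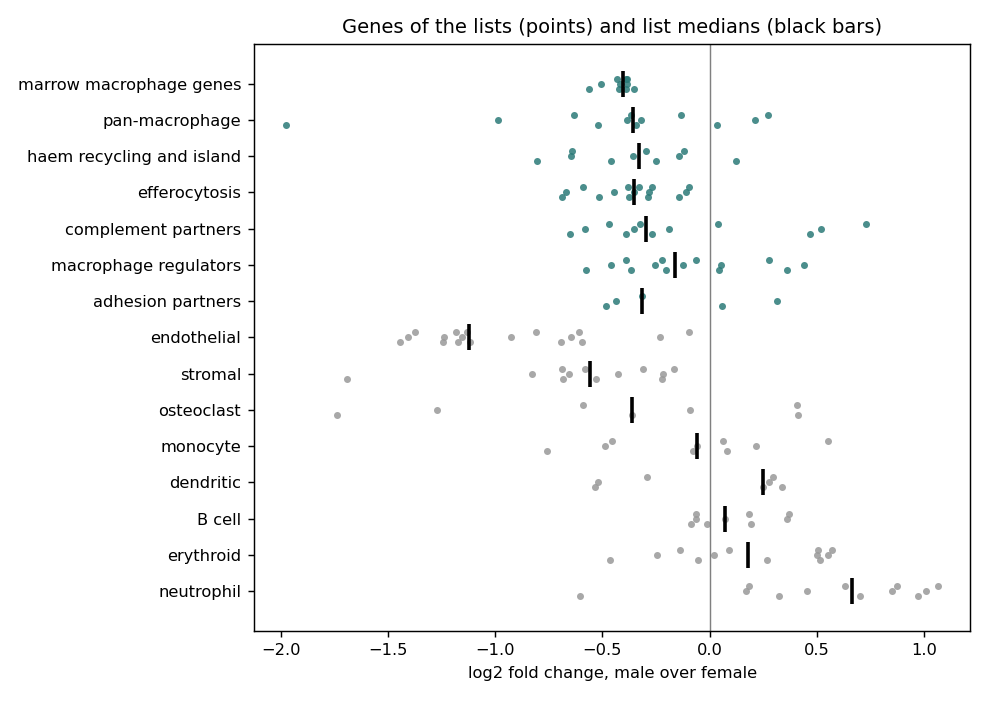
Log2 fold changes of males over females for each gene of the lists, as points, with the median of each list as a black bar. The macrophage lists (green) have medians between -0.40 and -0.16, the endothelial list -1.12 and the neutrophil list 0.67, on the TMM scale.

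Markers of other cells were set beside these genes, and none of those in the lists that follow passed an adjusted p of 0.05 in edgeR. All 18 endothelial markers had lower fitted levels in males, with a median of -1.12. Scaled to the 12 macrophage genes, 16 of them were lower and 2 higher. Scaling to the endothelial list itself sets its sum level, and 12 were then lower and 6 higher. Stab2, of sinusoidal endothelium, had 115 ± 9.23 and 71.3 ± 15.3 CPM and Pecam1 92.2 ± 9.13 and 78.6 ± 11.2 (SD, n = 3). Both took more counts than any other gene of the list. In male replicate 2, Pecam1 had 3772 counts and Stab2 2697, where Cdh5 had 320. The share of the list and the scaling to it thus follow these genes most, and the log2 ratio of Pecam1 was -0.23. Tek and Eng had log2 fold changes of -1.37 and -1.24, without overlap. All 12 stromal markers were lower as well (7 of them when scaled to the 12 macrophage genes and 2 when scaled to the endothelial genes), with a median of -0.56. Cxcl12 had 1885 ± 691 and 1401 ± 500 CPM, Lpl 973 ± 169 and 618 ± 299, and Adipoq 129 ± 45.7 and 39.9 ± 17.9 (SD, n = 3). The summed share of the endothelial list ran from 0.0374% to 0.0603% in the female libraries and from 0.0232% to 0.0330% in the male ones. That of the stromal list ran from 0.220% to 0.442% and from 0.162% to 0.319%, and overlapped.

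Neutrophil markers had higher levels in males on the TMM scale, and their median was above 0 under each scaling tried. Of 12, 11 were higher in males, and their summed share ran from 2.02% to 2.18% in the female libraries and from 3.32% to 4.36% in the male ones. S100a8 had 4899 ± 491 and 10246 ± 2484 CPM, S100a9 7544 ± 657 and 14816 ± 2892, and Retnlg 683 ± 93.5 and 1377 ± 182 (SD, n = 3). Of 12 erythroid markers, 8 were higher and 4 lower in males, with a median of 0.18. They held from 1.32% to 1.73% of the counts of the female libraries and from 1.83% to 2.86% of those of the male ones. Hbb-bs had 3938 ± 830 and 5782 ± 1030 CPM and Hba-a1 3904 ± 577 and 5539 ± 1440 (SD, n = 3). Globins made up most of this share. In female replicate 1 they had between 145966 and 203885 counts each, and the next marker, Slc4a1, had 10628. The 4 lower markers, named after their values were seen, were Tfrc, Icam4, Gata1 and Epor. Their log2 ratios were -0.053, -0.14, -0.25 and -0.46 on the TMM scale, with overlap between the sexes. The share of the B cell markers, such as Cd79a and Cd79b, overlapped, with 0.324 ± 0.0364% in females and 0.324 ± 0.0372% in males (SD, n = 3). Cd79b had 1022 ± 81.4 and 1012 ± 92.8 CPM, and Cd79a 872 ± 107.9 and 833 ± 88.4 (SD, n = 3).

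Other mononuclear phagocytes did not share one direction. Of 9 monocyte markers, 5 were lower and 4 higher in males, with a median of -0.057. Ly6c2, of classical monocytes, had 186 ± 28.0 and 273 ± 41.4 CPM, higher in all males, and Ms4a6c 61.8 ± 6.37 and 65.3 ± 9.72 (SD, n = 3). Cx3cr1, Ace and Treml4, named after their values were seen, were lower in males, each without overlap. Their log2 ratios were -0.49, -0.76 and -0.45, with adjusted p of 0.365, 0.259 and 0.207 in edgeR. In this list 3 of 9 genes were thus lower without overlap, against 7.29% of all genes, and 1 was higher. Of 7 dendritic cell markers, 4 were higher and 3 lower, with a median of 0.25. Flt3 had 29.6 ± 8.56 and 35.8 ± 3.96 and Siglech 20.6 ± 1.44 and 24.5 ± 4.76 CPM (SD, n = 3). Among 8 osteoclast markers, 7 were tested, of which 5 were lower and 2 higher, with a median of -0.36. Acp5 had 136 ± 16.0 and 106 ± 6.26 CPM and Nfatc1 74.2 ± 9.63 and 69.5 ± 10.7 (SD, n = 3), while Calcr, a defining marker named after its values were seen, was at or near 0 with at most 0.126 CPM in any library. The part of neutrophils and the other cells in the differences of the macrophage genes was not tested. The count ratio of the 10 genes to the neutrophil list was 0.267 ± 0.0245 in females and 0.112 ± 0.0244 in males (SD, n = 3), without overlap.

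**Figure D5:**
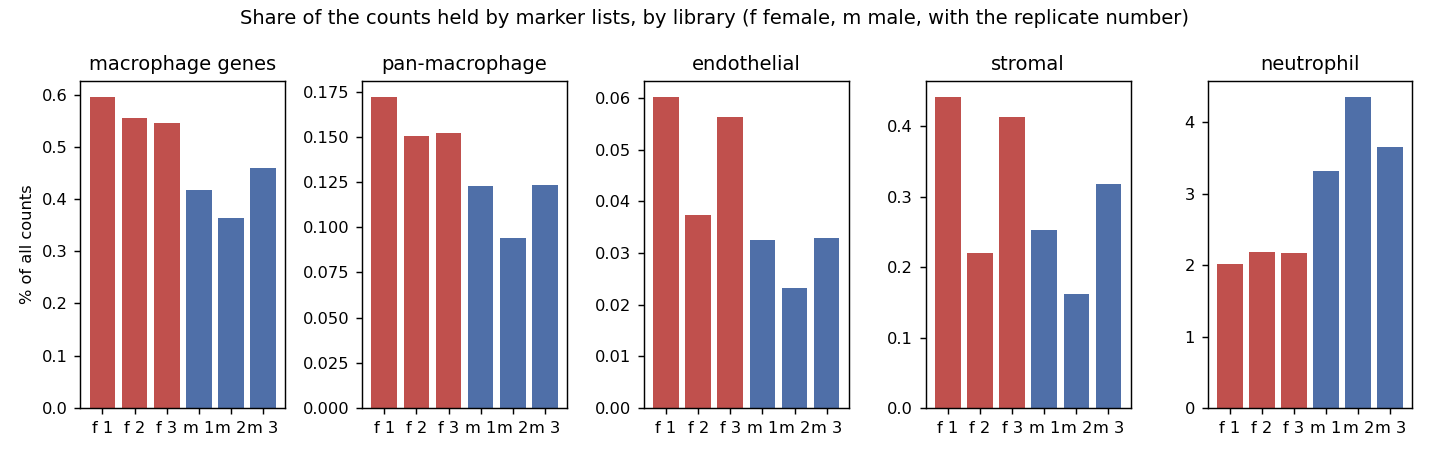
Percent of all counts held by the 10 macrophage genes, the 12 other macrophage genes and 3 marker lists in each library, with bars from 0. The macrophage, endothelial and neutrophil shares do not overlap between the sexes, and the stromal shares do.

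The genes whose levels followed the mean log2 CPM of the C1q chains most closely over the 6 libraries were Mpi, Tpst2, Spout1, Scamp5 and Prkar2a, with Pearson's r between 0.987 and 0.996. These were the highest r among 10469 protein-coding genes with at least 5 CPM, of which 62 had r above 0.95. All libraries share the difference between the sexes and their depth, and with 6 points r is a description without a test. Among the 10 macrophage genes outside C1q, r was 0.94 for Cd5l, 0.93 for Spic, 0.89 for Axl, 0.88 for Adgre1, 0.82 for Siglec1, 0.79 for Vcam1 and 0.52 for Mertk. Mertk and Vcam1 were both highest in female replicate 1 and lowest of the females in replicate 2, where the C1q chains were highest. In the related lists, Cfp and Lgmn followed C1q most closely, each with r of 0.95.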

How the data were processed

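Transcripts of cells labelled as BECs were measured in 6 libraries, 3 from each sex. The values the authors deposited are read counts per gene and library, not normalized and not pooled. The sources differ on how they were made: the submitters' processing notes name TopHat2 2.0.11, featureCounts and the NCBIM37 (mm9) genome, and the paper names STAR, featureCounts and GRCm39. No identifier of the table lies in the upper range of numbers that 47216 of the 78289 genes of GENCODE M39 have, so the table was counted on an older annotation than that one. The strand setting and annotation release are not given in the sources used here. Symbols, positions and lengths came from GENCODE M39 (GRCm39), which matched 31073 of 37991 identifiers. Lengths are those of this annotation, not of the one counted on. No gene of the table shared exons with the 10 genes.

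Counts were tested with edgeR 4.0.16 in R 4.3.3 (TMM, filterByExpr by sex, robust quasi-likelihood fit, Benjamini-Hochberg over 19480 genes). Standard errors are the log2 fold change over the square root of F. DESeq2 1.42.0 was an alternative. Depth was 47678806 to 58325745 counts, at which 3 counts are 0.0477 to 0.0639 CPM, covering counting error only. Counts of no 2 libraries agreed within sampling noise (chi-square per degree of freedom at least 31.7 over 15 pairs). Log2 CPM for correlations used a prior count of 2. The fits were tested on simulated data.

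The members and lists were chosen with earlier results of these data known. Named were every member, the 2 highest genes of each list, list genes at an adjusted p under 0.05 or without overlap and with a log2 fold change of at least 1 in size, Emcn, Cdh5, Pecam1 and Ptprc, and the 5 genes most like C1q, with Csf1r as a divisor. Other genes are marked in the text as named after their values were seen. Alternatives were other size factors, filters, tests and lengths, the replicate number as a block, scaling to a gene list, and each library left out. Vpreb1 had no identifier and was not analysed here. The values of 1 further gene of the lists are not reported here.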

Additional observations from a re-analysis of the deposited data

How the results depend on the processing

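All 10 macrophage genes stayed lower in males under every alternative other than scaling to a gene list, and the number called by edgeR stayed at 0 of 10. DESeq2's Wald test called 1 of 10 (Axl) and, over all genes, 225 higher and 129 lower, with 1 higher and 6 lower of the 68 related genes, those of the 6 other macrophage lists, against 5, 3, 0 and 0 in the edgeR fit. The labels give same-numbered libraries of the sexes nothing in common but the number, and the correlation of their deviations was between 0.040 and 0.298, with a mean of 0.177 against -0.087 for the other pairs, so they were not treated as pairs. With the replicate block, edgeR called 221 higher and 207 lower of all genes, so that 1.06% were called lower. It called 1 higher and 9 lower of the 68 related genes and 0 of the 10. DESeq2 with the replicate block called 353 higher and 361 lower of 17807 genes, so that 2.03% were called lower. It called 2 higher and 15 lower of the related genes and 5 of the 10. Female libraries 1, 2 and 3 each correlated best with their own number, but female replicate 2 only by 0.0402 against 0.0373 with male replicate 1. Male replicate 2 did not correlate best with its own number, and the design gives no pairing. With total counts alone, 10 of all genes were higher and 1 related gene lower, where 0.0205% of all genes were called lower. Without a filter on low counts, 75 and 23 of all genes and 1 and 2 of the related genes were called, where 0.085% of all genes were called lower. The cause of these differences was not tested.

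Scaled to the 12 other macrophage genes, 3220 and 43 of all genes and 8 and 1 of the related genes were called, and the log2 fold changes became 0.046 for C1qa, 0.081 for C1qb, 0.053 for C1qc, 0.039 for Adgre1, 0.085 for Vcam1, 0.090 for Siglec1, 0.091 for Mertk and 0.13 for Spic. Scaled to the endothelial list, an alternative chosen after seeing the data, these were 6181 and 22, 14 and 1, and the log2 fold changes 0.30, 0.34, 0.31, 0.31, 0.37, 0.35, 0.40 and 0.37 in the same order, with 0.23 for Axl and 0.16 for Cd5l. These scalings moved the median of all genes by 0.49 and 0.77, which is what fixing a lower list at 0 does.

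With each library left out in turn, between 3 and 66 of all genes were higher and between 2 and 30 lower, with 66 and 30 without male replicate 3, 9 higher without male replicate 1 and 3 higher without female replicate 2. Of the 68 related genes, between 0 and 1 were higher and between 0 and 2 lower (1 and 2 without male replicate 3, 0 and 1 without female replicate 1). Of all genes, between 0.00999% and 0.151% were called lower in these fits. The members without overlap were between 6 and 9, where the share of all genes without overlap in this direction was between 9.35% and 16.8%.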
